A study of Mus musculus with 157 samples.

Results

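The 8 genes described here carry out the synthesis and sensing of prostaglandins and leukotrienes: Pla2g4a, Ptgs1, Ptgs2, Ptges, Ptger4, Alox5, Alox5ap and Lta4h. They were taken by gene symbol. Each was found once in each of 8 expression tables from mouse macrophages, so the set is 8 of the 24940 genes those tables list.

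Both kinds of lipid mediator start from arachidonic acid, which the cytosolic phospholipase A2 encoded by Pla2g4a releases from membranes. The cyclooxygenases, the mostly constitutive Ptgs1 and the inducible Ptgs2, turn it into the common prostaglandin precursor, the microsomal synthase Ptges makes prostaglandin E2 from that precursor, and Ptger4 encodes EP4, a receptor for prostaglandin E2. In the leukotriene branch the lipoxygenase Alox5 needs the membrane protein FLAP, encoded by Alox5ap, and Lta4h hydrolyses the product to leukotriene B4, which attracts neutrophils. Macrophages are a known source of both kinds of mediator in crystal arthritis such as gout.

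Messenger RNA was measured by poly-A selected, strand-specific sequencing of bone marrow-derived macrophages (BMDM), which are grown from marrow in the growth factor M-CSF, after exposure to PBS or to particles at 250 µg/mL. The particles were monosodium urate crystals (MSUc), the crystals of gout; calcium pyrophosphate dihydrate crystals (CPPD), those of pseudogout; silica nanoparticles; and the aluminum salt alum. The 8 experiments used here hold 115 libraries in 45 groups of 2 or 3. C57BL/6, Tfeb-Tg, Bhlhe40-/- and Bhlhe41-/- marrow was cultured in 16 ng/mL M-CSF, and that of the AMPK experiment, from mice of 7 to 8 weeks, in 5 ng/mL M-CSF in another medium; the labels give no culture conditions for Tfe3KO marrow.

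In the time course, wild-type BMDM received PBS or MSUc for 10 minutes, 30 minutes, 1, 2 or 5 hours, with 2 libraries per group. In the particle experiment wild-type BMDM received PBS, MSUc, CPPD, silica or alum for a time that is not given in the labels. The same holds for the exposure times of the other 6 experiments. The Tfe3 experiment compared cells labelled Tfe3WT and Tfe3KO under PBS, MSUc, CPPD and silica. The Tfeb experiment compared wild-type with Tfeb-Tg cells, whose transgene promoter the labels do not name, and the Bhlhe experiment compared wild-type with Bhlhe40-/- and Bhlhe41-/- cells, each under PBS and MSUc. The AMPK experiment compared BMDM of Ampkα1-/- mice, labelled Ampka1KO, with those of congenic wild-type mice, labelled Ampka1WT. The last 2 experiments used wild-type BMDM with vehicle or SGC0946, an inhibitor of the histone methyltransferase DOT1L given at 1 µM from day 0, and with vehicle or metformin, a drug known to activate AMPK, at a dose not stated. The labels do not say how the Tfe3 and Ampkα1 alleles were made, or whether the libraries of a group came from separate animals or cultures, so p-values measure only the spread between these libraries.

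Levels are given in TPM, a share of all transcripts corrected for transcript length. A change is a difference of group means on the log2(TPM + 1) scale with its standard error, and this scale understates the change of low genes. A gene was called changed at an adjusted p under 0.05 in limma, with Benjamini-Hochberg adjustment over all genes tested in the comparison, and the share of all tested genes called is given as background. The reads recovered from the TPM values ran from 2118570, in PBS library 1 at 30 minutes of the time course, to 22114311 per library. The 8 macrophage markers examined summed to between 7317 and 39736 TPM in every library. Mast cell markers stayed at or under 29.9 TPM in sum with Mcpt4 at 0 throughout, and lymphocyte markers at or under 7 TPM. Other lists reached more: neutrophil markers ran from 1.57 to 2009 TPM in sum, stromal markers from 2.11 to 3635 TPM, and megakaryocyte and platelet markers from 0.969 to 157 TPM. In bulk RNA, fewer cells of a type and less RNA per cell cannot be told apart.

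Several libraries do not bear out their labels in full. Prkaa1, which encodes AMPKα1, was at 24.9, 25.4 and 23.1 TPM in Ampka1WT cells under PBS and at 27.3, 24.3 and 26.5 TPM in those labelled Ampka1KO. With MSUc it was called higher in the libraries labelled Ampka1KO, at 28.7, 31.05 and 26.5 TPM against 21.2, 23.3 and 21.5 TPM (0.37 ± 0.08, limma, adjusted p = 0.0017). Its total therefore does not check the deletion. Tfe3 was lower in the libraries labelled Tfe3KO under PBS, at 70.0, 66.7 and 68.4 TPM against 94.2, 97.1 and 104 TPM in Tfe3WT (-0.52 ± 0.08, limma, adjusted p = 0.001), and with silica (-0.54 ± 0.08, adjusted p = 0.0002). It was not called with CPPD, at 97.7, 85.4 and 96.4 TPM against 102, 98.4 and 108 TPM (-0.14 ± 0.08, adjusted p = 0.38), or with MSUc, at 87.3, 84.9 and 85.0 TPM against 83.3, 79.7 and 83.2 TPM (0.06 ± 0.08, adjusted p = 0.73). The genotype field of the Tfe3WT libraries also reads Tfe3KO; the titles were followed. Bhlhe40 fell by 3.22 ± 0.19 on the log2 scale in Bhlhe40-/- cells under PBS, while Bhlhe41 was at 49.8 and 46.3 TPM in Bhlhe41-/- cells under PBS against 55.9 and 49.8 TPM in wild type. With MSUc it was at 49.5 and 50.3 TPM against 94.9 and 90.1 TPM (-0.88 ± 0.09, adjusted p = 0.0063), so it was called lower in Bhlhe41-/- cells with MSUc and not under PBS (adjusted p = 0.49). Tfeb under PBS was at 86.5, 80.0 and 75.1 TPM in Tfeb-Tg cells against 44.4 and 43.7 TPM in wild type. With MSUc Tfeb was at 200.9, 298.9 and 240.3 TPM in Tfeb-Tg cells against 28.91, 30.71 and 25.49 TPM in wild type. In the TfebWT group with MSUc, the treatment field of library 3 reads PBS, and its title was followed.

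Under PBS, the leukotriene branch was represented mainly by Alox5ap and Lta4h. Over the 8 PBS control groups the group means ran from 258 to 566 TPM for Alox5ap, from 36 to 55.5 TPM for Lta4h, and from 0 to 3.97 TPM for Alox5. Among the prostaglandin genes the means were 12.7 to 28.2 TPM for Ptgs1, 3.09 to 8.97 TPM for Pla2g4a, 0.985 to 2.42 TPM for Ptges and 3.7 to 28.6 TPM for Ptger4. The Ptgs2 means ran from 0.492 TPM in the time course at 5 hours to 17.5 TPM in the metformin vehicle group. Across all 115 libraries Ptgs2 ran from 0.278 to 1325 TPM, whereas Lta4h ran only from 24.9 to 70.8 TPM.

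Promoter sequences were matched by symbol in RefSeq (GRCm38.p6) for 7 of the 8 genes, all but Alox5ap. The promoters of the 2 cyclooxygenase genes and Ptges are shown: Ptgs2, which rose with every particle, Ptgs1, which fell with MSUc, and Ptges, which rose later than Ptgs2. The promoter of Pla2g4a, which also rose with every particle, is not shown. Each sequence runs 5′ to 3′ along the gene from 250 bases before to 30 bases after the start. The Ptgs2 promoter lies on the plus strand at chr1:150099781-150100060, that of Ptgs1 on the plus strand at chr2:36230176-36230455, and that of Ptges on the minus strand at chr2:30903268-30903547. Capitals mark bases 14 to 22 after the Ptgs2 start, which hold the E-box CACGTG, its TFE3/TFEB-type extension TCACGTG and, on the other strand and overlapping both, the CRE core TGACG.
Ptgs2: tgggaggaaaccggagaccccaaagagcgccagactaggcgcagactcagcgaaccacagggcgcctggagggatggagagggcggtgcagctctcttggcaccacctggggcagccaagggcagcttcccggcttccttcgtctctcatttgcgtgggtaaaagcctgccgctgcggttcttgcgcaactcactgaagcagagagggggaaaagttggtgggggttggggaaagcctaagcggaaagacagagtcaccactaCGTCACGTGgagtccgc
Ptgs1: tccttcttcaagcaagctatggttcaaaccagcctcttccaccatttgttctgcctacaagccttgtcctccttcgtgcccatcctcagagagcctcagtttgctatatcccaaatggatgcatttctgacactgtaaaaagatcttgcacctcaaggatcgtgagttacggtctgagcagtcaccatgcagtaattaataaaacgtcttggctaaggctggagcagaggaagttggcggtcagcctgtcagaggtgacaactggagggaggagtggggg
Ptges: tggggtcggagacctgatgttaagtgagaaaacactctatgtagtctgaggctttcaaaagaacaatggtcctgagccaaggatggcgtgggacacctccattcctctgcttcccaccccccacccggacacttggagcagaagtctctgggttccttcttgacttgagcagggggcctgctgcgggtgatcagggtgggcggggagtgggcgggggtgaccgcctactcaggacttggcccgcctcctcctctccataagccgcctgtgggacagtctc
These 3 motifs, the AP-1 motif TGANTCA, the TATA motif TATAAA and the kappaB consensus were searched on both strands in 300 bases, from 250 before to 50 after the start. Of the 7 promoters only that of Ptgs2 held any of the 6. Among 32851 mouse promoters of the same length, 7.15% held CACGTG, 3.77% TCACGTG, 20.8% TGACG, 7.81% TGANTCA, 13.6% TATAAA and 4.51% the kappaB consensus. A match describes letters in the window and not a binding site.

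The time course asks in what order the genes respond to urate crystals. In a fit that does not pair libraries, Ptgs2 and Ptger4 were first called higher at 30 minutes, Ptges at 2 hours and Pla2g4a at 5 hours, while Alox5ap was first called lower at 2 hours and Ptgs1 at 5 hours. This order depends on that choice: at 2 hours 4 of the 8 genes were called, and 7 with libraries matched by how they deviate from their group means, an alternative chosen after seeing the data. At 10 minutes limma called 0 of the 8 genes and 0.0567% of all genes, and among the 8 only Ptgs2 had an unadjusted p under 0.05, with lower values in the MSUc libraries. At 30 minutes 2 of 8 rose, where 0.68% of all genes were called, all of them higher (0% lower). At 1 hour 2 rose as well (3.28% of all genes called, 2.33% higher and 0.947% lower). At 2 hours 3 rose and 1 fell (33.5% called, 11.2% higher and 22.3% lower), and at 5 hours 3 rose and 2 fell (49.3% called, 16.4% higher and 32.9% lower). Between the PBS libraries at 5 hours and at 10 minutes limma called 0 of the 8 genes and 0% of all genes, and Ptgs2 again was the only 1 of the 8 with an unadjusted p under 0.05. In both comparisons limma voom called 0 of the 8.

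Ptgs2 under PBS was at 1.52 and 1.68 TPM at 10 minutes, 1.7 and 0.841 TPM at 30 minutes, 0.343 and 0.347 TPM at 1 hour, 0.354 and 0.835 TPM at 2 hours and 0.278 and 0.707 TPM at 5 hours. With MSUc it was at 0.464 and 0.921, 5.01 and 8.39, 14.1 and 22.4, 37.5 and 34.8, and 32.3 and 43.2 TPM at the same times. From 30 minutes on, both crystal libraries lay above both PBS libraries. The change was 1.75 ± 0.28 at 30 minutes (limma, adjusted p = 0.0096), 3.81 ± 0.28 at 1 hour (adjusted p = 3.6e-06) and 4.70 ± 0.28 at 5 hours (adjusted p = 7.3e-08). The call at 30 minutes was lost without PBS library 2 (adjusted p = 0.078) or MSUc library 2 (0.18), when those groups were fitted alone (0.87) and with limma voom on the recovered reads (0.057).

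Ptger4, the EP4 receptor, rose early and returned. Under PBS it lay between 16.1 and 22 TPM in all 10 libraries. With MSUc it was at 20.7 and 16.6 TPM at 10 minutes, 38.6 and 33.1 TPM at 30 minutes, 48.1 and 47.1 TPM at 1 hour, 29.7 and 30.5 TPM at 2 hours and 20.8 and 20.8 TPM at 5 hours. The change was 0.99 ± 0.12 at 30 minutes (adjusted p = 0.00062), 1.08 ± 0.12 at 1 hour (adjusted p = 9.5e-05), 0.52 ± 0.12 at 2 hours (adjusted p = 0.0043) and 0.07 ± 0.12 at 5 hours (adjusted p = 0.66). Fitted on the compared groups alone, the calls at 30 minutes and 2 hours were lost (adjusted p = 0.41 and 0.061), and with median-of-ratios scaling the value at 5 hours was called (0.015).

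The prostaglandin E synthase Ptges followed later. Its PBS libraries lay between 0.863 and 2.08 TPM. Its MSUc libraries were at 0.85 and 1.49 TPM at 10 minutes, 1.15 and 1.06 TPM at 30 minutes, 1.15 and 1.08 TPM at 1 hour, 2.68 and 3.02 TPM at 2 hours, and 7.44 and 6.66 TPM at 5 hours. The change was 0.97 ± 0.18 at 2 hours (adjusted p = 0.0012) and 1.90 ± 0.18 at 5 hours (adjusted p = 2.7e-06). At 1 hour, when Ptgs2 was already 3.81 above PBS on the log2 scale, the Ptges libraries with MSUc lay within the range of the PBS libraries.

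The phospholipase Pla2g4a was at 4.27 and 6.47 TPM under PBS at 5 hours and at 14.6 and 8.5 TPM with MSUc, so the groups did not overlap. Its change was 0.95 ± 0.36 (adjusted p = 0.045). That call was lost without PBS library 1 (adjusted p = 0.23), PBS library 2 (0.051) or MSUc library 1 (0.29) and in 4 of 7 alternatives (up to 0.1), and at 2 hours it was not called (0.63, adjusted p = 0.21). Ptgs1 fell over the same span: at 5 hours it was at 12 and 25 TPM under PBS and at 5.64 and 4.17 TPM with MSUc, a change of -1.65 ± 0.64 (adjusted p = 0.047). The 2 PBS libraries lay far apart, and the call was lost without PBS library 2 (0.27), MSUc library 1 (0.093) or MSUc library 2 (0.17) and in 6 of 7 alternatives (up to 0.076).

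In the leukotriene branch, Alox5ap was the gene that fell. It was at 572 and 532 TPM under PBS at 5 hours and at 285 and 289 TPM with MSUc, a drop by 0.94 ± 0.08 on the log2 scale (adjusted p = 1.2e-06). At 2 hours it was at 424 and 422 TPM with MSUc against 555 and 533 TPM under PBS (-0.36 ± 0.08, adjusted p = 0.004), a call that median-of-ratios scaling and the fit on those groups alone both lost (adjusted p up to 0.21). Lta4h was at 31.3 and 28.5 TPM with MSUc at 5 hours against 33.8 and 38.2 TPM under PBS (-0.26 ± 0.14, adjusted p = 0.15). Alox5 stayed at or under 2.09 TPM in all 20 libraries and was not called at any time. Between adjacent times, the response differed in 2 of the 8 genes from 10 to 30 minutes (Ptgs2 and Ptger4, 0.259% of all genes called), in 0 from 30 minutes to 1 hour (0.0891%; Ptgs2 had an unadjusted p under 0.05 and limma voom called 0), in 1 from 1 to 2 hours (Ptges, 5.47%) and in 1 from 2 to 5 hours (Alox5ap, 2.45%). The median change at 5 hours was -0.10 over the 8 genes and -0.23 over all tested genes.

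**Figure D1:**
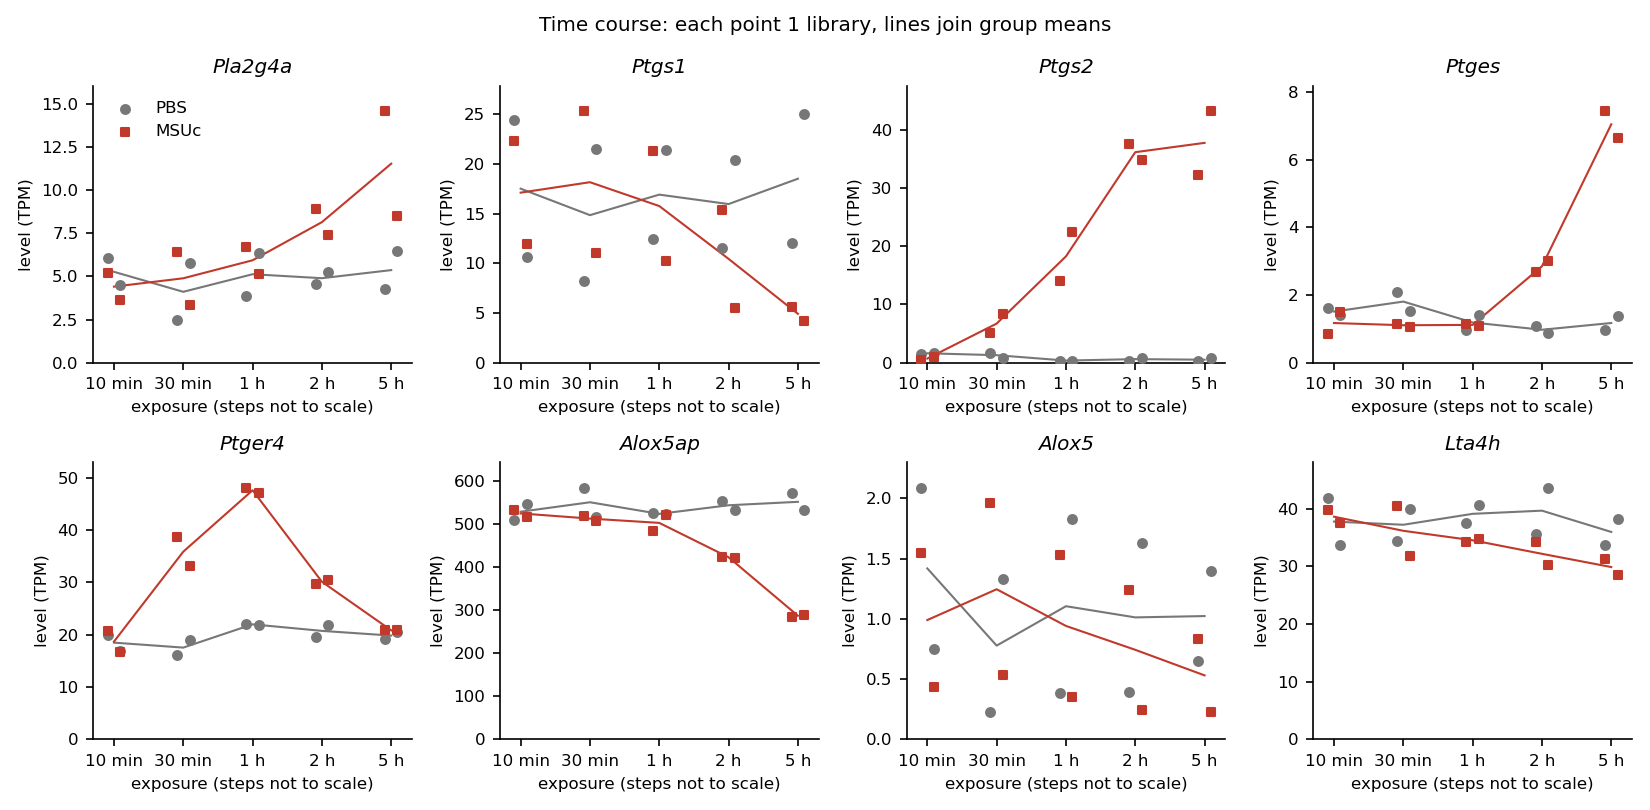
Level (TPM, linear axis from 0) of each of the 8 genes by time after PBS or MSUc; points are single libraries and lines join group means. Ptgs2 separates from PBS at 30 minutes and reaches 32.3 and 43.2 TPM at 5 hours, Ptger4 peaks at 48.1 and 47.1 TPM at 1 hour, and Alox5ap falls to 285 and 289 TPM.

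The particle experiment asks whether crystals and other particles share this response. Ptgs2, Ptges and Pla2g4a rose with each of the 4 particles, while Alox5ap fell with each. With MSUc, 3 of the 8 genes rose and 4 fell (63% of all genes called, 18.1% higher and 44.9% lower), and with CPPD the counts were also 3 and 4 (52.4% called, 16.6% higher and 35.8% lower). Silica gave 3 and 3 (68.4% called, 24.4% higher and 43.9% lower), and alum 3 and 1 (46.2% called, 27.1% higher and 19.2% lower). These 4 comparisons share the same 3 PBS libraries.

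Ptgs2 was at 0.607, 0.728 and 0.483 TPM under PBS. It was at 43.8, 27.2 and 15.6 TPM with MSUc, 50, 116 and 38.9 TPM with CPPD, 42.2 and 73.1 TPM with silica, and 11.1 and 9.58 TPM with alum. Every particle library lay above every PBS library, and the alum libraries lay lowest among the particles. The changes were 4.11 ± 0.39, 5.27 ± 0.39, 5.14 ± 0.44 and 2.82 ± 0.44 in that order (adjusted p = 3.1e-06, 6.4e-07, 1.8e-06 and 0.00027).

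Ptges was at 0.882, 0.97 and 1.1 TPM under PBS, at 35.9, 15.1 and 13.7 TPM with MSUc and at 33.5, 56.1 and 43.4 TPM with CPPD. With silica it was at 20.7 and 27.1 TPM, and with alum at 7.03 and 6.61 TPM. The order over particles was that of Ptgs2, with changes of 3.38 ± 0.29, 4.49 ± 0.29, 3.64 ± 0.32 and 1.98 ± 0.32 (adjusted p = 1.3e-06, 2.1e-07, 2.3e-06 and 0.00038). Pla2g4a was at 4.67, 4.67 and 4.85 TPM under PBS, at 27.7, 21.9 and 23.5 TPM with MSUc, and at 39.5, 39.9 and 29.4 TPM with CPPD. It was at 16.6 and 22.1 TPM with silica and at 8.53 and 9.26 TPM with alum. Its changes were 2.14 ± 0.14, 2.69 ± 0.14, 1.81 ± 0.16 and 0.79 ± 0.16 (adjusted p = 1.4e-07, 3.6e-08, 1.9e-06 and 0.0014).

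Alum thus gave a smaller rise than MSUc for all 3 genes, by 1.35 ± 0.16 for Pla2g4a (adjusted p = 3.7e-05), 1.40 ± 0.32 for Ptges (0.0033) and 1.29 ± 0.44 for Ptgs2 (0.027); 53.3% of all genes were called in that comparison, and 7 of the 8. The Ptgs2 difference was lost with no filter on low values (adjusted p = 0.058) and without any of 4 of the 5 libraries, all but MSUc library 3 (up to 0.12). CPPD gave more than MSUc for Ptges by 1.11 ± 0.29 (adjusted p = 0.017), for Pla2g4a by 0.55 ± 0.14 (0.014), for Ptgs2 by 1.17 ± 0.39 (0.049) and for Ptger4 by 0.62 ± 0.14 (0.0086), 4 of 8 against 23.6% of all genes. Of these only the Ptger4 difference kept its call with each library left out. The Ptges and Pla2g4a calls were lost without MSUc library 2 or CPPD library 2, and also without MSUc library 3 for Ptges and CPPD library 1 for Pla2g4a (adjusted p up to 0.077 and 0.067). The Ptgs2 call was lost without any of those 4 libraries (up to 0.18) and in 4 of 7 alternatives, the Ptges call when the groups were fitted alone (0.073) and the Pla2g4a call with median-of-ratios scaling (0.054).

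Ptgs1 moved the other way to Ptgs2. It was at 12.1, 14.1 and 15.8 TPM under PBS, at 3.58, 5.12 and 4.62 TPM with MSUc, at 2.42, 4.77 and 5.21 TPM with CPPD, at 3.64 and 3.09 TPM with silica, and at 8.66 and 10.4 TPM with alum. It fell by 1.47 ± 0.21, 1.59 ± 0.21 and 1.78 ± 0.23 with the first 3 particles (adjusted p = 6.8e-05, 5.7e-05 and 3e-05), and its alum value of -0.51 ± 0.23 was not called (adjusted p = 0.09). With MSUc, CPPD and silica the 2 cyclooxygenase transcripts therefore changed rank: Ptgs1 was the higher in each PBS library and Ptgs2 in each library with those particles.

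Alox5ap was at 334, 439 and 407 TPM under PBS, at 167, 170 and 205 TPM with MSUc, at 140, 158 and 192 TPM with CPPD, at 254 and 277 TPM with silica, and at 161 and 160 TPM with alum. All particle libraries lay below all PBS libraries. It fell by 1.11 ± 0.13 with MSUc, by 1.26 ± 0.13 with CPPD, by 0.56 ± 0.15 with silica and by 1.28 ± 0.15 with alum (adjusted p = 1.6e-05, 9.4e-06, 0.0047 and 2.5e-05), of which the silica call was lost with median-of-ratios scaling (0.37). Unlike Ptgs2, Ptges and Pla2g4a, Alox5ap did not differ between alum and MSUc beyond the spread (-0.16, 95% interval of the difference -0.48 to 0.15, adjusted p = 0.36), though median-of-ratios scaling called it lower with alum (adjusted p = 0.0099). Macrophage markers, led by Lyz2, summed to 27832 to 30582 TPM under PBS, 18411 to 20164 TPM with MSUc, 19087 to 21499 TPM with CPPD, 34608 to 39405 TPM with silica and 16210 to 16354 TPM with alum; their part in the Alox5ap values was not tested. The silica drop of Alox5ap was smaller than that with MSUc by 0.55 ± 0.15 (adjusted p = 0.0052), 1 of 2 genes called in that comparison, where 63.7% of all genes were.

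Lta4h fell with MSUc by 0.58 ± 0.09 and with CPPD by 0.50 ± 0.09 (adjusted p = 0.00018 and 0.00074) and was not called with silica or alum. Ptger4 was at 21.3, 21.3 and 20.7 TPM under PBS, at 12.1, 10 and 12.4 TPM with MSUc and at 17.4, 18 and 19.3 TPM with CPPD. It was at 13.9 and 8.81 TPM with silica and at 24 and 19.6 TPM with alum. It fell with MSUc (-0.83 ± 0.14, adjusted p = 0.00033) and silica (-0.87 ± 0.16, adjusted p = 0.00043) and was not called with CPPD or alum. Alox5, at or under 1.72 TPM in all 13 libraries, fell with CPPD by 0.65 ± 0.20 (adjusted p = 0.016), a call lost without PBS library 3 (0.08). Neutrophil markers summed to 262 and 363 TPM with silica against 49.8 to 115 TPM under PBS, with S100a9 the highest; their part in the silica values was not tested.

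**Figure D2:**
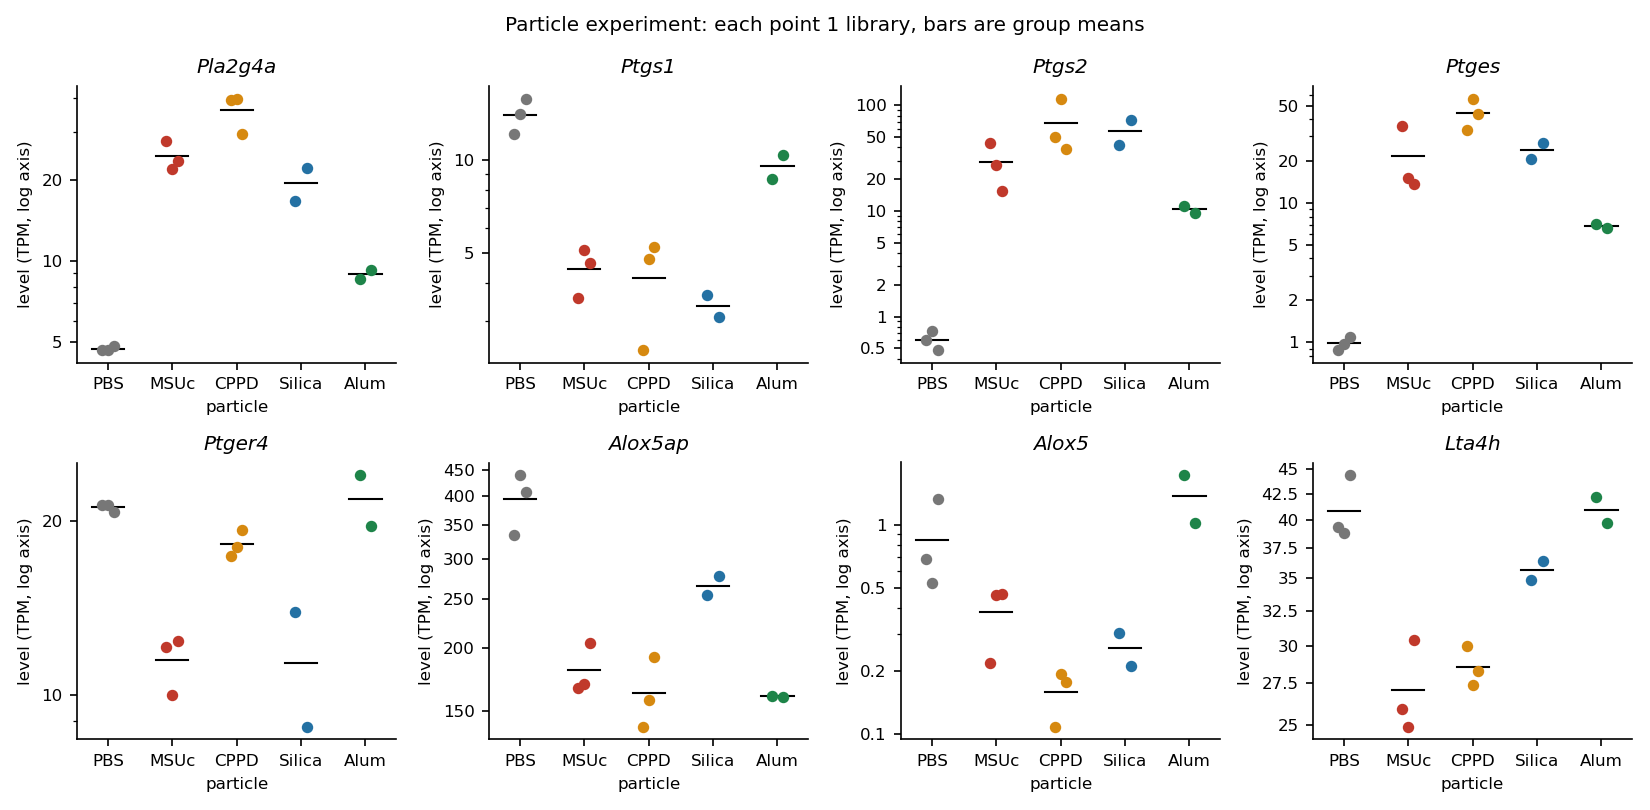
Level (TPM, log scale) of each gene in BMDM given PBS, MSUc, CPPD, silica or alum; points are single libraries and bars group means. Ptgs2 lies between 9.58 and 116 TPM in all particle libraries against at most 0.728 TPM under PBS, and Ptgs1 runs the other way.

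Across the 8 experiments, each with its own PBS controls and the 5 hour point standing for the time course, Ptgs2 rose with MSUc in 8 of 8 by between 2.94 and 5.52, and Pla2g4a in 8 of 8 by between 0.87 and 2.32. Ptgs1 fell in 8 of 8 (from -1.65 to -0.75), as did Alox5ap (from -1.16 to -0.66). The time course calls of Pla2g4a and Ptgs1 at 5 hours were lost in several alternatives, as given above. No TfebWT call was kept when the library with the PBS treatment field was taken as PBS. As background, 7.72% of the 11186 genes tested in all 8 were called higher in every experiment and 16.8% lower. Ptges rose in 6 of 8. The exceptions were the TfebWT cells, at 1.71 and 2.77 TPM under PBS and 2.21, 1.51 and 2.37 TPM with MSUc, and the wild type of the Bhlhe experiment, at 1.49 and 2.19 TPM under PBS and 2.79 and 2.7 TPM with MSUc.

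Ptger4 and Lta4h had no common direction. Ptger4 rose in 4 of the 8 experiments and fell in 3, from -1.09 in Tfe3WT cells to 2.11 in Ampka1WT cells. Lta4h rose in 1 and fell in 4. Alox5 passed the filter of 1 TPM in 4 experiments and was called in 0 of these, and in the SGC0946 experiment it was listed at 0 in all 3 vehicle libraries under PBS. Outside the time course no exposure time is given, so these values cannot be set against the rise and return of Ptger4 over time.

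**Figure D3:**
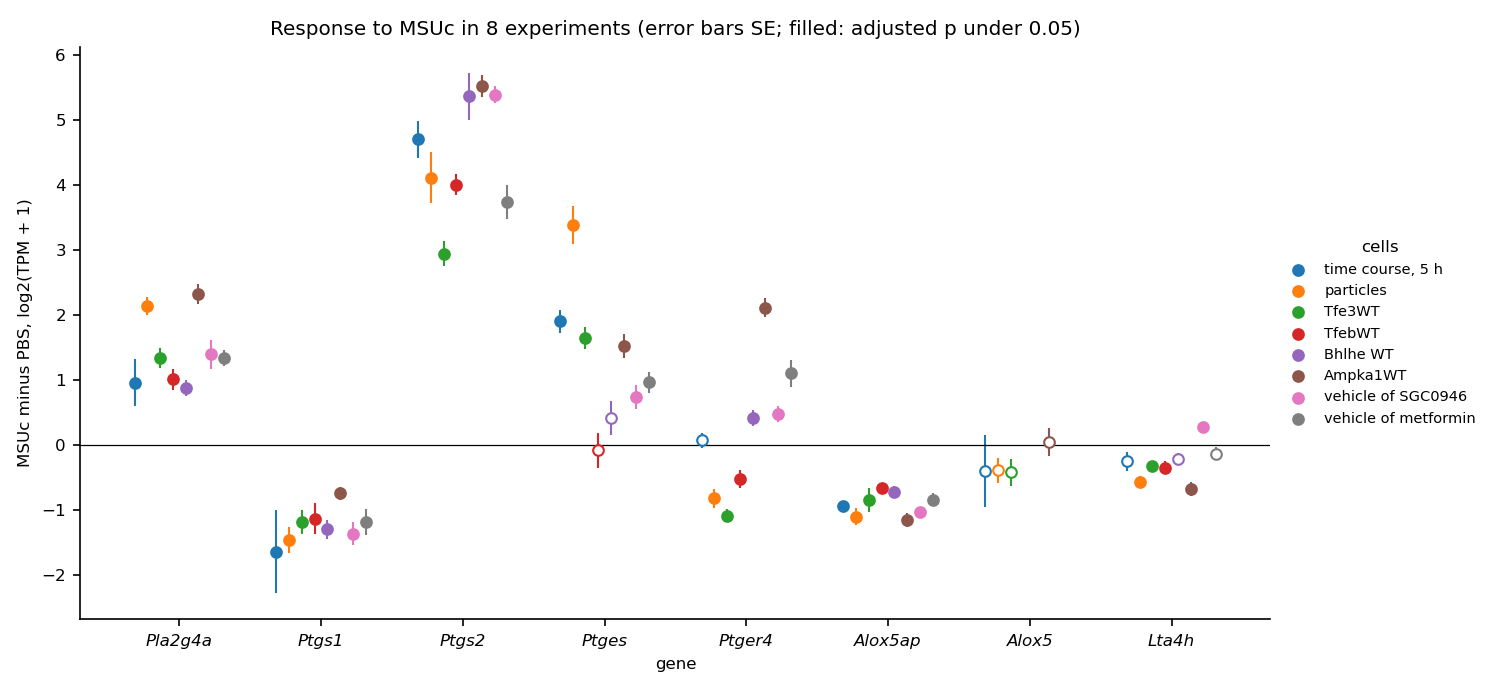
Change with MSUc against PBS (difference on the log2(TPM + 1) scale, error bars 1 standard error, filled points called) in the wild-type or vehicle cells of each of the 8 experiments. Ptgs2 and Pla2g4a lie above 0 and Ptgs1 and Alox5ap below 0 throughout, whereas Ptger4 runs from -1.09 to 2.11.

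The Tfe3 experiment asks whether TFE3, a basic helix-loop-helix factor that binds E-boxes, alters these responses. In Tfe3WT cells 3 of the 8 genes rose and 4 fell with MSUc (61.6% of all genes called), 3 rose and 4 fell with CPPD (60.2%), and 4 rose and 2 fell with silica (65.8%). Between genotypes limma called 0 of 8 under PBS (2.37%), 1 under MSUc (10.7%), 3 under CPPD (8.1%) and 0 under silica (12.5%). Under PBS 2 of the 8 had an unadjusted p under 0.05 and limma voom called Ptgs1, and under silica the count was 3 and limma voom called Ptgs2.

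The CPPD libraries held the differences in the prostaglandin genes. Ptgs2 was at 49.2, 70.6 and 60.5 TPM in Tfe3WT cells with CPPD and at 117, 121 and 141 TPM in the libraries labelled Tfe3KO. Ptges was at 29.2, 37.9 and 39.3 TPM in Tfe3WT cells and at 90, 62.7 and 76.2 TPM in those labelled Tfe3KO. For both genes all libraries labelled Tfe3KO lay above all labelled Tfe3WT. These directions rest on labels that the Tfe3 level did not check with CPPD or MSUc. The differences were 1.07 ± 0.19 for Ptgs2 (adjusted p = 0.00092) and 1.08 ± 0.17 for Ptges (adjusted p = 0.00029), and both kept their call in every alternative and with each library left out. Stromal markers with CPPD summed to 297 to 380 TPM in Tfe3WT cells and 134 to 355 TPM in those labelled Tfe3KO. Their part in these differences was not tested.

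Under PBS the same 2 genes lay at 1.35 to 2.53 TPM and at 1.47 to 1.87 TPM over both genotypes, with overlap. The CPPD response itself was larger in the libraries labelled Tfe3KO by 1.08 ± 0.24 for Ptges (adjusted p = 0.033; 1 of 8 genes against 0.93% of all), a call lost in 5 alternatives and in 8 of 12 single leave-outs (adjusted p up to 0.25 and 0.1). For Ptgs2 the corresponding value was 1.09 ± 0.27 and was not called (adjusted p = 0.06). With silica, Ptgs2 was at 89.8, 106 and 113 TPM in Tfe3WT cells and at 134, 137 and 161 TPM in those labelled Tfe3KO without overlap, and this difference of 0.48 ± 0.19 was not called (adjusted p = 0.1), though it was with median-of-ratios scaling, the replicate block or limma voom. With MSUc the genotypes overlapped, at 19.8, 25.2 and 21 TPM and at 14.8, 22.9 and 29.4 TPM. For the responses to MSUc and to silica, limma called a difference between genotypes in 0 of 8 genes (1.73% and 1.52% of all genes), with 1 and 0 below an unadjusted p of 0.05 and 0 by limma voom.

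Lta4h was lower in the libraries labelled Tfe3KO with MSUc, at 31.9, 35.7 and 31.6 TPM against 38.7, 41.3 and 40.1 TPM, and with CPPD, at 26.7, 27.1 and 24.9 TPM against 33.8, 31.8 and 31 TPM. It fell by 0.27 ± 0.06 and 0.29 ± 0.06 (adjusted p = 0.0035 and 0.0029), the first of which was lost when those groups were fitted alone (0.068). Within Tfe3WT cells CPPD exceeded MSUc for Ptges by 2.13 ± 0.17 (adjusted p = 1.8e-08) and for Ptgs2 by 1.40 ± 0.19 (adjusted p = 1.1e-05), where 5 of the 8 genes were called and 22% of all. Silica exceeded MSUc for Ptgs2 by 2.18 ± 0.19 (adjusted p = 1.4e-08), where 4 genes were called and 57.1% of all, but Ptges was at 5.63, 7.38 and 9.23 TPM with MSUc and at 5.44, 4.99 and 6.72 TPM with silica (-0.31 ± 0.17, adjusted p = 0.13). Silica also raised Lta4h, to 61.2, 57.9 and 60.4 TPM from 52.3, 48.8 and 50.4 TPM (0.24 ± 0.06, adjusted p = 0.00099). Neutrophil markers summed to 1469 to 2009 TPM in Tfe3WT cells with silica against 305 to 599 TPM under PBS and 439 to 853 TPM with CPPD; their part in these values was not tested.

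TFEB is the close relative of TFE3. In wild-type cells of that experiment 2 of the 7 genes tested rose and 4 fell with MSUc (45.5% of all genes called), and in Tfeb-Tg cells 2 rose and 3 fell (47.5%). Ptgs2 was at 0.895 and 0.733 TPM under PBS and 26.9, 27.6 and 29.5 TPM with MSUc in wild type. In Tfeb-Tg cells it was at 1.01, 0.598 and 1.12 TPM and at 21.4, 18.6 and 20.4 TPM. Library 3 of wild type with MSUc, whose treatment field reads PBS, is the 29.5 TPM; taken as PBS, no MSUc response in wild type kept its call (adjusted p for Ptgs2 = 0.2). All 3 transgenic MSUc libraries lay below the wild-type ones, a difference of -0.46 that was not called (adjusted p = 0.12).

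With MSUc, Pla2g4a was at 20, 19 and 17.1 TPM in wild type and 10.7, 10.9 and 11.2 TPM in Tfeb-Tg cells, and Ptger4 at 14.4, 16.1 and 15.5 TPM and 10.9, 10.3 and 8.35 TPM. Lta4h ran the other way, at 44.8, 36.9 and 39.3 TPM in wild type and 56.2, 51 and 59.9 TPM in Tfeb-Tg cells. These were the 3 genes called between genotypes under MSUc (3.48% of all genes), by -0.72 ± 0.14, -0.60 ± 0.12 and 0.46 ± 0.09 (adjusted p = 0.017, 0.022 and 0.021). Each call was lost when any of 3 or 4 of the 6 libraries was left out (adjusted p up to 0.073, 0.087 and 0.09), and each when library 3 was taken as PBS (0.57, 0.55 and 0.6). Of the 7 genes tested, all but Alox5, limma called 0 under PBS (0.717%) and 0 in the difference of responses (0.1%). Below an unadjusted p of 0.05 were 1 and 2, and limma voom called 0. With MSUc, macrophage markers summed to 12037 to 12495 TPM in wild type and 10850 to 11083 TPM in Tfeb-Tg cells. Stromal markers summed to 18.8 to 33.1 and 8.61 to 8.93 TPM, and neutrophil markers to 8.79 to 29 and 18.9 to 23 TPM. Mast cell markers, led by Kit, summed to 7.94 to 8.41 and 27.7 to 29.9 TPM. The part of these lists in the differences was not tested.

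In the Bhlhe experiment 7 of the genes were tested, all but Alox5, and none differed between a knockout and wild type in limma. In Bhlhe40-/- cells 0 of 7 were called under PBS (0.0824% of all genes) or MSUc (0.0165%), with 0 and 1 below an unadjusted p of 0.05. In Bhlhe41-/- cells 0 of 7 were called under PBS (2.76%) or MSUc (1.33%), with 3 and 4 below an unadjusted p of 0.05, and limma voom called Pla2g4a under PBS. Ptgs2 with MSUc was at 91.7 and 88.7 TPM in wild type, at 93.5 and 84.4 TPM in Bhlhe40-/- cells and at 69 and 63.8 TPM in Bhlhe41-/- cells. With MSUc 5 genes were called in wild type (60.5%), 6 in Bhlhe40-/- cells (61.5%) and 5 in Bhlhe41-/- cells (56.8%). Pla2g4a rose in wild type from 6.74 and 6.55 TPM to 12.8 and 13.2 TPM (0.87 ± 0.12, adjusted p = 0.00015). In Bhlhe41-/- cells it was at 9.25 and 10.6 TPM under PBS and 11.7 and 9.44 TPM with MSUc (0.08 ± 0.12, adjusted p = 0.59), and the difference between these responses was not called (-0.79 ± 0.17, adjusted p = 0.1). Differences of responses were called in 0 of 7 genes for Bhlhe40-/- (0.00824%) and for Bhlhe41-/- (0.132%), with 1 and 2 below an unadjusted p of 0.05 and 0 by limma voom.

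The AMPK experiment gave the highest Ptgs2 levels in these data. In Ampka1WT cells 4 of the 8 genes rose and 3 fell with MSUc (63.7% of all genes called), and in the libraries labelled Ampka1KO 5 rose and 3 fell (58.5%). Under PBS 6 genes were higher and 1 lower in the libraries labelled Ampka1KO than in Ampka1WT (47.7%), and under MSUc 5 were higher and 1 lower (71.8%). These directions rest on labels that Prkaa1 did not check.

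Ptgs2 was at 2.95, 1.51 and 2.46 TPM in Ampka1WT cells under PBS and at 126, 106 and 116 TPM in the libraries labelled Ampka1KO. With MSUc it was at 168, 156 and 124 TPM and at 1004, 1325 and 1267 TPM. The libraries labelled Ampka1KO without crystals thus overlapped in level with the Ampka1WT libraries with crystals. The difference was 5.17 ± 0.17 under PBS (adjusted p = 3.2e-09) and 2.995 ± 0.17 under MSUc (adjusted p = 2.4e-08).

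Pla2g4a was at 4.25, 3.6 and 2.99 TPM in Ampka1WT cells under PBS and 26.9, 27.4 and 30.8 TPM in the libraries labelled Ampka1KO, and with MSUc at 17.6, 22 and 26.9 TPM and 62.2, 64.8 and 78.1 TPM. The differences were 2.68 ± 0.15 under PBS and 1.59 ± 0.15 under MSUc. Ptgs1 was at 25.2, 28.7 and 30.7 TPM and 80.3, 76.6 and 83 TPM under PBS, the highest Ptgs1 levels in any group, and at 17.7, 15.3 and 16.2 TPM and 31.4, 31.3 and 37.9 TPM with MSUc. So Ptgs1 and Ptgs2, which moved in opposite directions with crystals, were both higher in the libraries labelled Ampka1KO. Ptges was at 1.41, 2.09 and 1.7 TPM and 4.41, 5.19 and 6.17 TPM under PBS. Its difference of 0.68 under MSUc was lost with median-of-ratios scaling (adjusted p = 0.33).

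In the leukotriene branch Alox5ap was lower in the libraries labelled Ampka1KO. It was at 538, 583 and 578 TPM against 411, 444 and 381 TPM under PBS (-0.46 ± 0.11, adjusted p = 0.0051) and at 259, 244 and 255 TPM against 136, 136 and 99 TPM with MSUc (-1.04). Alox5 was higher under PBS, at 6.58, 9.35 and 11.7 TPM against 2.85, 4.94 and 4.13 TPM (1.03 ± 0.22, adjusted p = 0.0024). Lta4h with MSUc was at 54.6, 63.8 and 70.8 TPM against 30.9, 34.6 and 36.8 TPM (0.86 ± 0.11). Ptger4 rose with MSUc in Ampka1WT cells from 3.2, 4.08 and 3.82 TPM to 21.7, 19 and 17.1 TPM (2.11 ± 0.15), and in the libraries labelled Ampka1KO from 8.85, 6.13 and 7.04 TPM to 17.2, 14.8 and 13.2 TPM (0.95).

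The response to MSUc itself, taken with its sign, differed between the genotypes in 7 of the 8 genes (50.6% of all genes called). In the libraries labelled Ampka1KO it was higher for 1 and lower for 6, including Ptgs2 by -2.17 ± 0.24 (limma, adjusted p = 3.5e-05). Lower meant a smaller rise for Ptgs2, Pla2g4a and Ptger4 but a larger fall for Ptgs1 and Alox5ap. Mean Alox5 went from 3.97 to 4.09 TPM in Ampka1WT and from 9.2 to 4.29 TPM in Ampka1KO. Lta4h, the 1 higher, fell from 55.5 to 34.1 TPM in Ampka1WT and rose from 49.8 to 63 TPM in Ampka1KO. Markers of other cells moved with these labels. Stromal markers, led by Col1a1, summed to 996 to 1583 TPM under PBS and 3276 to 3635 TPM with MSUc in the libraries labelled Ampka1KO, against 117 to 202 and 100 to 304 TPM in Ampka1WT, and 7 of the 7 reached 1 TPM with MSUc against 5 in Ampka1WT. Neutrophil markers summed to 143 to 224 and 344 to 407 TPM against 18.6 to 28.1 and 11.4 to 65.8 TPM. Macrophage markers were lower, at 22158 to 24851 TPM under PBS and 7317 to 9584 TPM with MSUc against 35614 to 39736 and 24847 to 30147 TPM, with 8 of 8 above 1 TPM in each group. Megakaryocyte and platelet markers, led by Ppbp, summed to 23 to 44.8 TPM under PBS and 15.5 to 34.8 TPM with MSUc against 4.54 to 4.83 and 13.5 to 16.9 TPM. Their part in the differences of the 8 genes was not tested.

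Metformin changed most of the genes without crystals. Of the 7 tested, all but Alox5, 2 were higher than with vehicle under PBS and 4 lower (39.5% of all genes called), and under MSUc 1 was higher and 3 were lower (43.6%). Pla2g4a rose from 9.08, 6.73 and 6.27 TPM with vehicle to 22, 23.1 and 20.8 TPM with metformin under PBS (1.47 ± 0.12, adjusted p = 2.4e-06), beside 20.9, 18.7 and 20.2 TPM in vehicle cells with MSUc. Ptgs1 fell from 22.5, 27.2 and 21.3 TPM to 6.24, 10.6 and 7.34 TPM (-1.47 ± 0.20, adjusted p = 0.00015). So both genes moved without crystals in the direction they took with crystals in vehicle cells.

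Ptges went the other way, from 2.52, 2.62 and 2.13 TPM to 0.81, 1.15 and 0.687 TPM under PBS (-0.87 ± 0.16, adjusted p = 0.0011). With MSUc it was at 6.5, 4.76 and 5.74 TPM with vehicle and 2.28, 2.11 and 1.82 TPM with metformin (-1.11 ± 0.16, adjusted p = 0.00022). No metformin library reached a vehicle library of the same exposure. Alox5ap fell under PBS from 295, 328 and 324 TPM to 208, 188 and 219 TPM (-0.62 ± 0.10, adjusted p = 0.00039), and Lta4h by 0.41 ± 0.10 (0.0079).

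Ptgs2 was at 17.9, 19.9 and 14.8 TPM with vehicle and 37.1, 38 and 21 TPM with metformin under PBS, and at 227, 239 and 266 TPM and 120, 267 and 152 TPM with MSUc. The rise under PBS (0.80 ± 0.27, adjusted p = 0.032) was lost without vehicle library 1 or 3 or metformin library 1 or 2 (adjusted p up to 0.11), and the difference under MSUc was not called (-0.52, adjusted p = 0.14). With MSUc, 4 genes rose and 2 fell in vehicle cells (53.9%), and 4 rose and 1 fell with metformin (29%). The response itself differed in 3 of the 7 genes (12.2%): it was smaller for Pla2g4a (-0.90 ± 0.17, adjusted p = 0.006), and Ptgs1, which fell with MSUc in vehicle cells, was at 6.24, 10.6 and 7.34 TPM under PBS and 7.35, 9.09 and 6.79 TPM with MSUc in metformin cells. Stromal markers summed to 214 to 429 TPM under PBS with vehicle and 95.9 to 260 TPM with metformin, and macrophage markers to 22853 to 25714 TPM and 11357 to 12920 TPM. Mast cell markers, led by Kit, summed to 2.11 to 2.66 TPM and 12.4 to 16.4 TPM, and 2 of the 9 reached 1 TPM with metformin. The part of these lists in the changes with metformin was not tested.

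**Figure D4:**
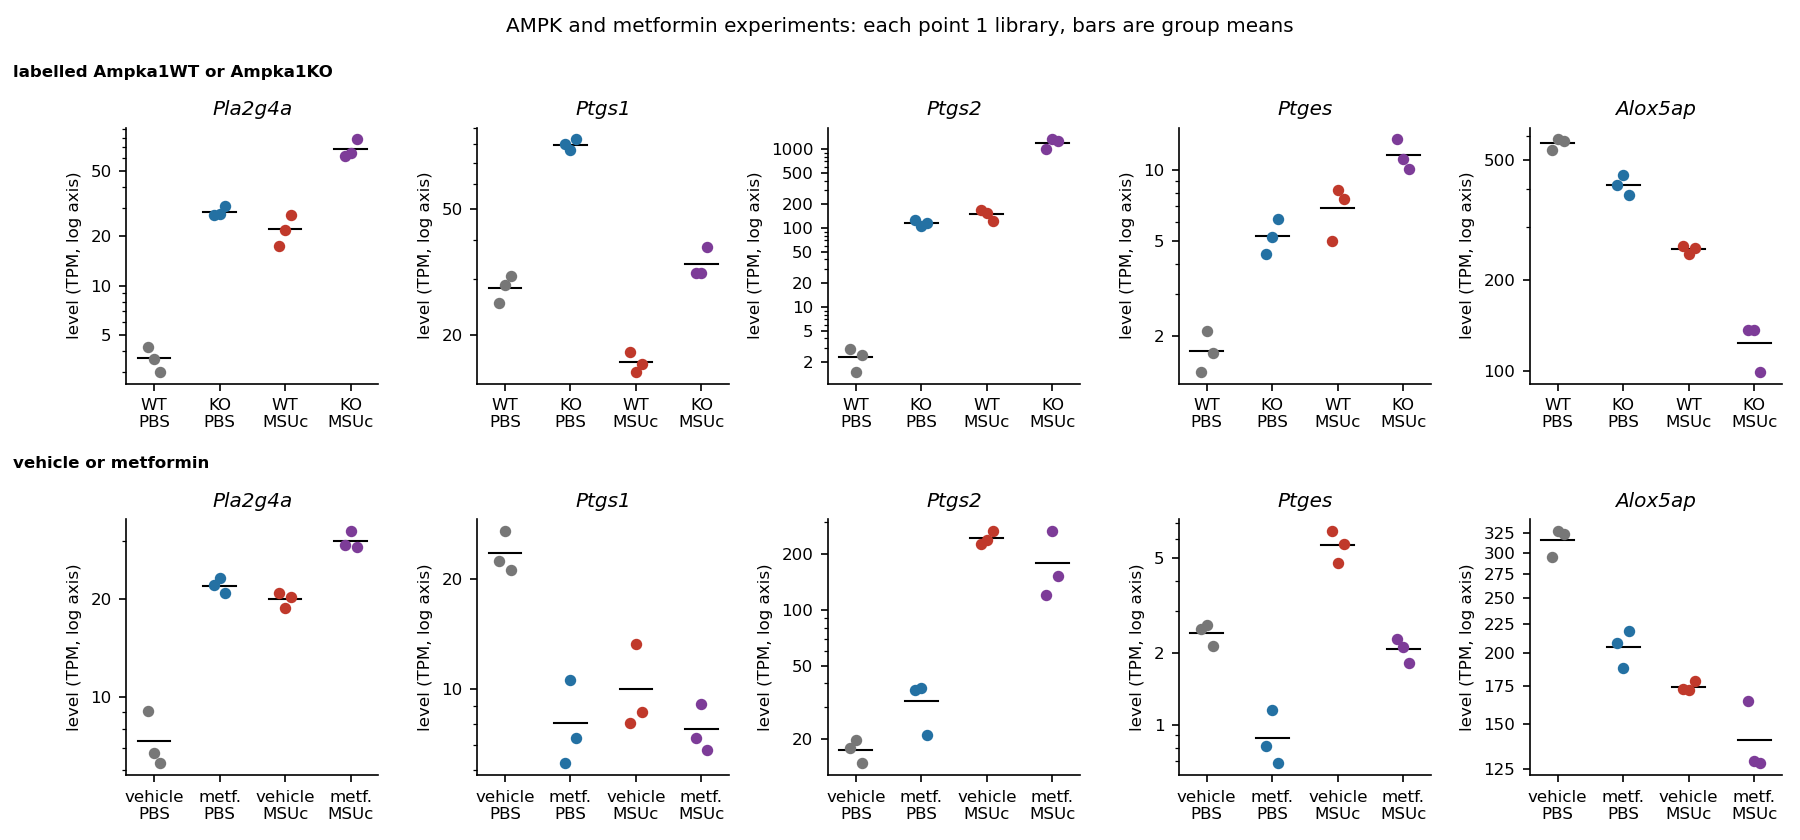
Levels (TPM, log scale) of Pla2g4a, Ptgs1, Ptgs2, Ptges and Alox5ap in the AMPK and metformin experiments under PBS and MSUc; points are single libraries and bars group means. Ptgs2 reaches 1004 to 1325 TPM in the libraries labelled Ampka1KO with MSUc, and metformin cells under PBS have more Pla2g4a (20.8 to 23.1 TPM) and less Ptgs1 (6.24 to 10.6 TPM) than vehicle cells.

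The DOT1L inhibitor SGC0946 left most of these genes without a call. Between inhibitor and vehicle limma called 0 of the 7 genes tested under PBS (0.673% of all genes) and 1 under MSUc (16.6%). That gene was Alox5ap, at 123, 124 and 126 TPM with vehicle and 151, 164 and 165 TPM with SGC0946 under MSUc (0.36 ± 0.06, adjusted p = 0.0029), a difference kept in every alternative and with each library left out. Under PBS it was at 253, 268 and 253 TPM and at 266 and 245 TPM, and for the difference of responses limma called 0 of 7 (0.0325% of all genes; Alox5ap 0.37 ± 0.08, adjusted p = 0.12). Under PBS and for the responses, 2 genes each had an unadjusted p under 0.05, and limma voom called 0. Ptgs2 with MSUc was at 67, 82.4 and 63.7 TPM with vehicle and 75.6, 88.2 and 81.6 TPM with SGC0946, with overlap. With MSUc, 5 genes rose and 2 fell in vehicle cells (55.4%), and 4 rose and 2 fell with SGC0946 (48.9%).

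Among 69 other genes of the pathway, 47 were tested at 5 hours of the time course, of which 8 rose (17% of them, beside 16.4% of all genes) and 20 fell (42.6%, beside 32.9%) with MSUc; their median was -0.45, beside -0.23 over all tested genes. Of the other prostanoid synthases 1 of 6 tested rose and 3 fell, of the other prostanoid receptors 2 of 4 rose and 2 fell, of the other leukotriene and lipoxygenase enzymes 3 of 5 fell, and of the leukotriene receptors 1 of 2 fell. Of the other phospholipases 1 of 10 rose and 2 fell, of the genes that activate or reacylate arachidonic acid 2 of 11 rose and 4 fell, and of those for breakdown and transport 2 of 9 rose and 5 fell. In the particle experiment 48 were tested, of which 11 rose and 24 fell with MSUc, 10 and 23 with CPPD, 12 and 26 with silica, and 13 and 12 with alum. These are 22.9% and 50% of the 48 with MSUc (18.1% and 44.9% of all genes), 20.8% and 47.9% with CPPD (16.6% and 35.8%), 25% and 54.2% with silica (24.4% and 43.9%) and 27.1% and 25% with alum (27.1% and 19.2%), shares near the background for the genes that rose. Hpgd, which inactivates prostaglandins, was at 19.7 and 94.9 TPM under PBS and 2.13 and 4.45 TPM with MSUc (-3.43 ± 1.23, adjusted p = 0.035). Ltc4s, which makes leukotriene C4, went from 10.4 and 12.5 TPM to 3.88 and 4.49 TPM, and Cysltr1, a receptor for cysteinyl leukotrienes, from 8.73 and 12.7 TPM to 2.61 and 2.61 TPM. The PBS and MSUc libraries of these 3 genes did not overlap. The genes were picked by p-value or by calls in these data, so this is no separate support. The share of all genes without overlap was not computed.

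Ptgir, the prostacyclin receptor, rose from 2.44 and 2.79 TPM to 6.24 and 13.5 TPM. Acsl4, which couples arachidonic acid to coenzyme A for return to membranes, rose from 29.4 and 40 TPM to 63.5 and 68.7 TPM. Daglb, a lipase that can also feed arachidonic acid, fell from 84.7 and 85.9 TPM to 36.6 and 38.3 TPM. Over the 8 experiments Acsl4 was called higher in all 8, by 0.78 to 1.95. Hpgd was called lower in all 8, from -3.43 to -1.25, as were Cysltr1, Daglb, Fam213b, Cbr1, Fads1, Ptgr2 and Lpcat2. Among the 11186 genes tested in all 8, 7.72% were called higher in every experiment and 16.8% lower. The matching shares of the pathway genes were not computed. Acsl1 was called higher in 3 of the 8 experiments and lower in 2, and Pla2g15 higher in 2 and lower in 2. Cotl1 was called lower in 6 of 8, Cyp4f16 in 5 of 8 and Cysltr2 in 2 of the 5 that tested it.

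Deposited region lists give chromatin changes with MSUc in wild-type BMDM, and 6 of the 8 genes are nearest to a listed region. That count runs over all lists, and the matching share of all genes was not computed. The lists name 36 regions with such a gene nearest, 21 gained and 15 reduced, and 0 nearest to Ptgs2 or Lta4h. By list, genes nearest to a region were 2 of the 8 for gained DOT1L binding (10% of all genes), 4 for TFE3 (11.3%) and 3 for TFEB (12.9%). For reduced DOT1L binding they were 5 (10.9%). For gained and reduced acetylation of histone H3 at lysine 27 (H3K27ac) they were 2 and 1 (4.71% and 4.46%), and for gained and reduced H3K4me3 2 and 0 (2.7% and 2.05%). These shares run over all 24940 listed genes, expressed or not, and shares over expressed genes alone were not computed. Coordinates are on mm10 and nearest genes are the authors' own. A nearest gene can be far away: a gained H3K27ac region lies 1018145 bases from the Pla2g4a start, and the Ptger4 regions lie 44.4 to 104 kb from its start.

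Ptges had the most, 10 regions, all gained and all between 17.1 and 24.3 kb upstream of its start. Most of them overlap one another, so they are not 10 separate sites. In the authors' deposited table H3K27ac at chr2:30926230-30928230 had signals of 60.8, 47.9 and 65.7 under PBS and 139 and 112 with MSUc, in tags scaled to equal library totals (log2 fold change 1.05, adjusted p = 0.019). H3K4me3, a mark of active start sites, in the same window was at 22.8 and 24.9 under PBS and 72.6 and 74.3 with MSUc (log2 fold change 1.61, adjusted p = 0.0026 in the authors' deposited table). Inside that window the lists hold a gained DOT1L peak of 416 bases, which contains a TFEB peak of 293 bases. A second group at chr2:30925189-30925468 held a TFE3 peak of 280 bases, overlapped by a TFEB peak over 255 bases and a DOT1L peak over 258 bases.

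Ptgs1, the cyclooxygenase that fell, had 4 reduced DOT1L peaks, 2 of them in introns 2 and 8 and 2 of them 13.2 and 13.8 kb upstream. It also had gained peaks of DOT1L, TFE3 and TFEB that coincide 48.5 kb downstream of its start. Alox5ap, which fell as well, had reduced H3K27ac at chr5:149228209-149230209, at 76.2, 115 and 87.3 under PBS and 54.6 and 39.1 with MSUc (log2 fold change -1.05, adjusted p = 0.044 in the authors' deposited table), beside 2 reduced DOT1L peaks and 2 gained TFE3 peaks. Alox5 and Ptger4 had 3 reduced DOT1L peaks each and no other listed region.

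Pla2g4a had gained H3K27ac in intron 1, at chr1:149939418-149941418, with signals of 62.2, 47.9 and 75.6 under PBS and 168 and 162 with MSUc (log2 fold change 1.36, adjusted p = 0.00068 in the authors' deposited table). In intron 16 a TFE3 and a TFEB peak shared 275 bases. Intron 1 also held 2 reduced DOT1L peaks and a gained H3K4me3 region, so gains and losses lay within the same intron of a gene that rose. No per-peak value is given for DOT1L, TFE3 and TFEB, and how their lists were called is not given in the sources used here. The labels hold 1 TFE3 library with MSUc and 2 under PBS, so the gained TFE3 peaks named here have no replicate with MSUc.

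**Figure D5:**
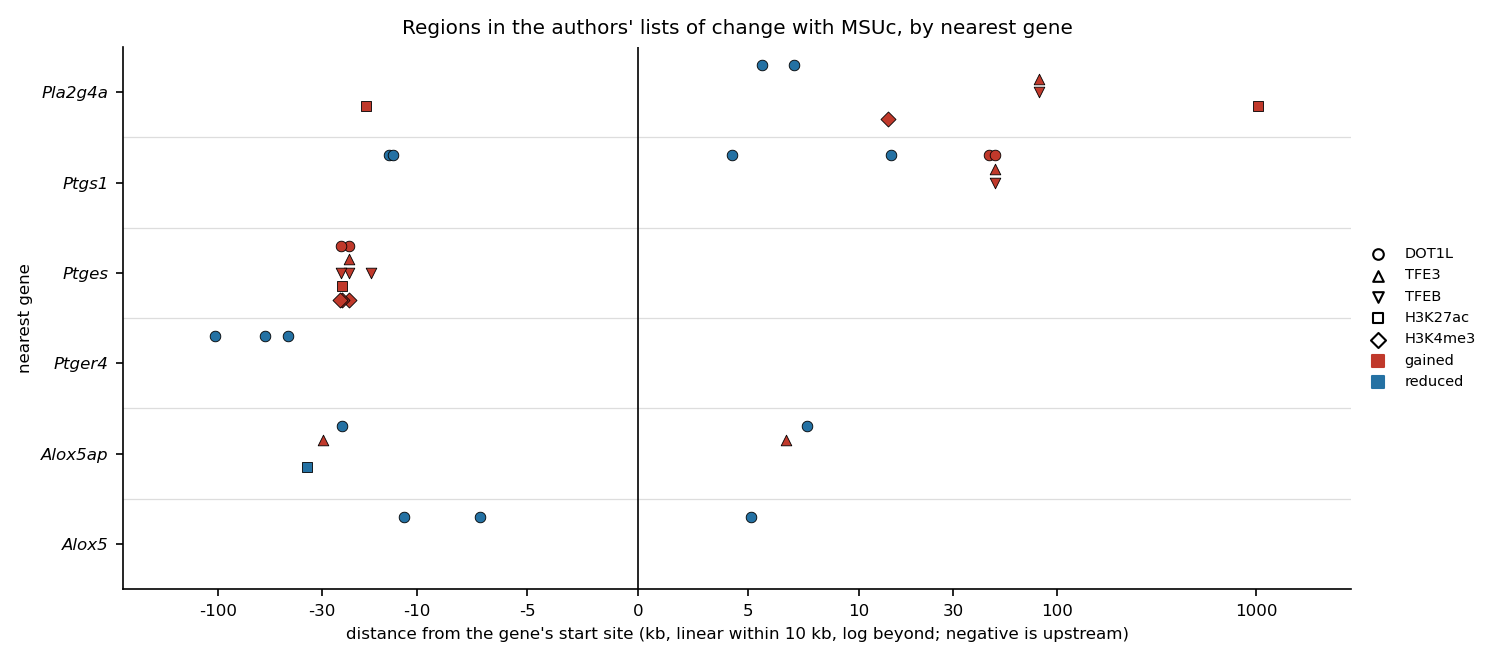
Listed regions by distance (kb, linear within 10 kb and log beyond) from the start of their nearest gene, for the 6 genes that have any, by mark and direction with MSUc; each symbol is 1 region. The 10 gained regions of Ptges lie between 17.1 and 24.3 kb upstream, whereas Alox5 and Ptger4 have only reduced DOT1L peaks.

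Across the 115 libraries the genes whose log2(TPM + 1) values, after subtraction of the mean of each experiment's wild-type or vehicle PBS libraries, followed each of the 8 most closely were found by Pearson's r. The search took in 9100 genes with a mean of at least 5 TPM. Points share their experiment, so r describes these libraries only and has no p. Ptgs2 was closest to the RNA helicase Ddx21 (r = 0.93), Pla2g4a to the zinc transporter Slc39a14 (0.93), Ptges to the superoxide dismutase Sod2 (0.90) and Ptger4 to the nuclear kappaB regulator Nfkbiz (0.81). Alox5ap was closest to the myosin light chain Myl12b (0.92), Ptgs1 to Pgm2l1 (0.86), Alox5 to Dmpk (0.71) and Lta4h to Ndufa9 (0.71). Among the 8 genes themselves Ptgs2 and Pla2g4a went together (r = 0.80), and Pla2g4a and Alox5ap ran against each other (r = -0.81).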

How the data were processed

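Per the submitters' processing notes, reads were processed with STAR and HOMER on mm10; versions are not given in the sources used here. The deposited expression values carry no stated unit and behave as TPM: multiplied by transcript length low values are whole multiples of 1 read in each library (100% within a tolerance of 0.15), and they sum to 528079 to 569594 TPM per library because only listed transcripts are kept. The deposited region lists give, per the file headers, coverage signal in windows of 2001 bases scaled to equal totals, log2 fold changes and adjusted p-values of the authors' own test, and distances to the nearest start.

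The 8 genes, the pathway and marker lists and the rules for naming genes were chosen with earlier results of these data known. Counts had been planned for; as the tables hold TPM, log2(TPM + 1) was fitted with limma 3.58.1 (R 4.3.3, trend), all groups of an experiment together. A gene was tested if at least as many libraries as its experiment's smallest group has were at 1 TPM or more. Tests were two-sided, adjusted by Benjamini-Hochberg over all tested genes, in 61 comparisons, and the procedure was tested on simulated data. Other pathway genes are named from the 2 of each list with the smallest p at 5 hours and from those called with MSUc in all 8 experiments, except 1 that is not reported here. Other steps used Python 3.11.15, pandas 2.3.3, numpy 2.4.6, scipy 1.17.1 and matplotlib 3.10.9. Of 117 RNA samples in the labels, 115 were used. Not used were 2 expression columns and 8 signal columns that matched no sample. In the particle experiment the numbers of silica and alum columns differ from those of the labelled samples, and columns were matched by name only. The alternatives were other pseudocounts (0.25 and 5 TPM), no filter, median-of-ratios scaling, a replicate block, the compared groups alone, limma voom on recovered reads and each library left out.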

Additional observations from a re-analysis of the deposited data

Results flagged for a closer look

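Differences of responses passed the test for 15 pairs of gene and comparison, each on the log2(TPM + 1) scale with limma and Benjamini-Hochberg adjustment over all genes. In the time course, the response of Ptgs2 at 30 minutes exceeded that at 10 minutes by 2.38 ± 0.40 (adjusted p = 0.029) and that of Ptger4 by 0.98 ± 0.17 (0.029). The response of Ptges at 2 hours exceeded that at 1 hour by 1.005 ± 0.25 (0.035), and that of Alox5ap at 5 hours was below that at 2 hours by -0.58 ± 0.11 (0.019). With 2 libraries a group, each of these 4 calls was lost in 5 to 7 of 8 single leave-outs, with adjusted p up to 0.17, 0.18, 0.14 and 0.071, and each was lost when the 4 groups were fitted alone.

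The CPPD response of Ptges was larger in the libraries labelled Tfe3KO than in Tfe3WT by 1.08 ± 0.24 (adjusted p = 0.033).

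Between the libraries labelled Ampka1KO and Ampka1WT, the MSUc response differed for Ptgs2 (-2.17 ± 0.24, adjusted p = 3.5e-05), Ptger4 (-1.15 ± 0.21, 0.00093), Pla2g4a (-1.08 ± 0.21, 0.0017), Alox5 (-0.97 ± 0.31, 0.023), Alox5ap (-0.58 ± 0.16, 0.0097), Ptgs1 (-0.49 ± 0.14, 0.013) and Lta4h (1.02 ± 0.15, 0.00025). For Ptgs2, Pla2g4a and Ptger4 the smaller response went with a higher level under PBS. The Alox5 call was lost without Ampka1WT PBS library 1, Ampka1WT MSUc library 3 or the PBS library 3 labelled Ampka1KO (adjusted p up to 0.059).

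Between metformin and vehicle the MSUc response differed for Pla2g4a (-0.90 ± 0.17, adjusted p = 0.006), for Ptgs1 (1.16 ± 0.29, 0.022) and for Ptgs2 (-1.32 ± 0.38, 0.041). The Ptgs1 call was lost without vehicle PBS library 2, vehicle MSUc library 3 or metformin PBS library 1 or 3 (adjusted p up to 0.06). The Ptgs2 call was lost in 10 of 12 single leave-outs, all but those of metformin PBS library 3 and metformin MSUc library 2 (up to 0.099), and with no filter on low values (0.078).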

How the results depend on the processing

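Over 464 values of gene and comparison, 210 were called, of which 163 kept their call in every alternative and with each library left out; 42 lost it in an alternative and 31 with a library left out, none changed direction while called, and 35 of 254 uncalled values became called. The calls in the time course numbered 17, and 7 when the compared groups were fitted alone, which leaves 4 libraries per comparison. Taking TfebWT MSUc library 3 as PBS left 4 of 14 calls in the Tfeb experiment. Leaving out 1 library at a time gave 14 to 17 calls in the time course, 33 to 39 in the particle experiment (37 with all libraries), 52 to 55 for Tfe3 (53), 10 to 15 for Tfeb (14), 15 to 16 for Bhlhe40 and Bhlhe41 (16), 33 to 36 for AMPK (35), 13 to 14 for SGC0946 (14) and 20 to 23 for metformin (24). Median-of-ratios scaling shifted the median of all genes by over 0.1 in 19 of 26 particle responses (from -0.09 to 0.31), and changes are relative to that.

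Replicate numbers as labelled did not pair the libraries: in no experiment did all same-numbered pairs correlate above 0.1 in their deviations from the group means. With the replicate number as a block, the calls were 15 in the time course and 56 for Tfe3, and unchanged in number elsewhere (37, 14, 16, 35, 14 and 24). In the time course the numbers of the PBS libraries from 30 minutes on ran crosswise to the others, and with them exchanged, an alternative chosen after seeing the data, the block gave 28 calls, with 7 at 2 hours in place of 4. Depth limits Alox5 above all, with a median of 14 reads per library.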
